A study of Rattus norvegicus with 120 samples.

Results

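Macrophages and related myeloid cells of the kidney were followed through 37 genes that they use for sensing antibodies, complement, growth factors and microbial products, or that mark white blood cells in general. The genes were chosen by name for these roles, which form a module of macrophage and myeloid genes. Earlier results of these data were known at that choice, so the counts below describe a chosen set. A gene was read from a probe set that maps to it alone, and where it had several, from the one with the highest mean over all 120 arrays. On the array 35 of the 37 had such a probe set, of 14217 genes in all (Msr1 and Vsig4 had none), and 29 of the 35 were bright enough to be tested, among 10663 genes tested. The other 6 (Fcgr2b, Itgam, Ccr2, Cx3cr1, Cd163 and Ncf1) were among the 25% of genes with the lowest mean level and were left out of the tests as dim. Kidneys came from 120 male Sprague-Dawley rats, 5 to 7 weeks old before treatment, each on an array of its own. Rats were injected intraperitoneally, for 1, 7, 14 or 28 days, with cyclosporine (CsA) at 25 or 2.5 mg/kg/day, tacrolimus (FK506) at 6 or 0.6 mg/kg/day or rapamycin (Rapa) at 10 or 1 mg/kg/day, or received olive oil as the vehicle, and were killed 24 hours after the last dose. This gave 28 groups, of which 21 held 4 rats. FK506 6 mg/kg at 14 doses held 3 rats, CsA 2.5 mg/kg, FK506 6 mg/kg and vehicle at 28 doses held 5 each, and FK506 0.6 mg/kg and both Rapa doses at 28 doses held 6 each. Different rats were killed at each time, and the title of the series gives its aim as early detection of the kidney toxicity of calcineurin inhibitors. Whole pieces of kidney were used, so a lower or higher signal of a cell-type gene can come from fewer or more cells of that type or from less or more RNA per cell, and these cannot be told apart here.

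CsA and FK506 block calcineurin, the phosphatase that lets T cells switch on cytokine genes, while Rapa blocks the kinase mTOR. The healthy kidney holds a network of resident macrophages between its tubules, which depend on the growth factor receptor Csf1r, and monocytes from blood can join them when tubules are damaged. Their activating Fc receptors have no signalling tail of their own. They pass their signal to the small membrane adaptor Fcer1g, and other myeloid receptors use the related adaptor Tyrobp. The phosphorylated tyrosines of both recruit the kinase Syk. Tissue macrophages are also the main source of C1q, whose chains C1qa, C1qb and C1qc form the recognition unit that starts the classical complement pathway. Cybb is the catalytic subunit of the oxidase with which phagocytes make superoxide. White cells other than macrophages carry many of these transcripts too: Ptprc, Spn, Cd48, Cd53, Laptm5, Hcls1, Arhgdib and Coro1a are shared by most leukocytes, and Gpnmb and Lgals3 can also be made by injured tubule cells.

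Transcription in the myeloid lineage depends on PU.1, a factor of the ETS family that binds purine-rich sites with a GGAA core, and GAGGAAG is a common form of its site. As a description, the 200 bases before the start of each gene were searched on both strands for these letters. The relation of these letters to the changes that follow was not tested. RefSeq's promoter table (build GRCr8) held 25 of the 37. GAGGAAG was present in 8 of the 25 (32%), against 2265 of 27457 promoters of the whole table (8.25%). GGAA alone, which is contained in every GAGGAAG, was present in 24 of the 25 (96%), against 24375 of 27457 (88.8%). A match is a run of letters and not a bound site. The 6 stretches shown are those of the integrin chain Itgam, of Csf1r, of C1qa and C1qb, of the lysosomal protein Cd68 and of the Fc receptor Fcgr3a, which was added after its values were seen. They run 5′ to 3′ on the gene's own strand, and capitals mark GGAA on either strand, so that TTCC in capitals is GGAA on the opposite one. Itgam lies at chr1:192089392-192089591 (plus strand) and holds GAGGAAG at 2 places, 151 bases before the start on its own strand and 40 bases before it on the opposite one. Fcgr3a, at chr13:85782436-85782635 (plus strand), holds it 55 bases before the start on the opposite strand. The stretches of Csf1r at chr18:56834179-56834378 (plus strand), C1qa at chr5:154419934-154420133 (minus strand), C1qb at chr5:154407828-154408027 (minus strand) and Cd68 at chr10:54882442-54882641 (minus strand) hold GGAA but not GAGGAAG.
Itgam: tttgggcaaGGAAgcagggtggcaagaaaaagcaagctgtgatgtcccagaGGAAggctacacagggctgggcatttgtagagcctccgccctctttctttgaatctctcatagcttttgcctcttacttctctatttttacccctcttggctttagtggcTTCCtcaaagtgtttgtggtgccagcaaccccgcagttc
Fcgr3a: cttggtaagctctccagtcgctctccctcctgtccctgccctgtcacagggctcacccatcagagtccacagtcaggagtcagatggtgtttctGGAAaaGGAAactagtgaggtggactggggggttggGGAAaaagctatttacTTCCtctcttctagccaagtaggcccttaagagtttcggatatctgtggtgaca
Csf1r: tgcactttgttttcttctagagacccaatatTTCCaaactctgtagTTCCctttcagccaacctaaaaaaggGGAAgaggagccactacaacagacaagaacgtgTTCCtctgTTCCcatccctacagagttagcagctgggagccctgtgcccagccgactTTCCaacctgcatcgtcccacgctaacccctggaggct
C1qa: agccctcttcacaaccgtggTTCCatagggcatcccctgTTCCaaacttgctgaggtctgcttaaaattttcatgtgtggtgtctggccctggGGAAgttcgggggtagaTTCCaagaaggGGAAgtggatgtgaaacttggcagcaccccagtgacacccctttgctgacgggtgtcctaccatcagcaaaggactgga
C1qb: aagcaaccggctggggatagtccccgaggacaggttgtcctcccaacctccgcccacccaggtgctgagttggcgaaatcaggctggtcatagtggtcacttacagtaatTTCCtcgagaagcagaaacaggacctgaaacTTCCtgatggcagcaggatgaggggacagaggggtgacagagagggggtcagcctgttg
Cd68: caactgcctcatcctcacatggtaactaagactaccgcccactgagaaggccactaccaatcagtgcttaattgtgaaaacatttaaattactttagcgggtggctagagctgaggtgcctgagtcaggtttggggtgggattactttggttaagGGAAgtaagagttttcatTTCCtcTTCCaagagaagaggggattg
C1qb, C1qc and C1qa are neighbours on chromosome 5, at 154402276 to 154407827, 154410845 to 154414208 and 154417086 to 154419933.

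Levels are given as log2(intensity + 16) after quantile normalization, and changes are differences of such levels, so a change of 1 is close to a doubling of the signal for genes well above the offset and understates it for dim ones. Errors of levels are standard deviations (SD), errors of changes are standard errors (SE) of the limma model, and a gene was said to rise or fall at an adjusted p under 0.05. The median intensity of the arrays ran from 52.0 to 86.1. All 5273 zeros of the deposited values lay in 1 array, CsA 25 mg/kg at 28 doses, replicate 3, where they made up 17.0% of the probe sets. Of the genes followed here 1 of 35 was at 0 in that array, and 0 of the 29 tested were. The 5 arrays of FK506 6 mg/kg at 28 doses had a mean hybridization control level of 9.15 ± 1.04, against 10.67 ± 0.06 in the 5 vehicle arrays of that time. The 6 arrays of Rapa 1 mg/kg at 28 doses had 9.66 ± 1.20. After 7 doses the difference between the 3-prime and 5-prime log2 levels of Gapdh, which grows as RNA degrades, was 0.44 ± 0.06 under CsA 25 mg/kg, against 0.76 ± 0.13 in vehicle rats.

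Over the 28 groups the genes had their highest levels under CsA 25 mg/kg and their lowest under Rapa. Of the 29 tested, 19 had their highest group mean under CsA 25 mg/kg after 14 doses, 4 after 28 doses and 1 after 7 doses, and 3 had it under FK506 6 mg/kg after 28 doses. The lowest group mean lay under Rapa 10 mg/kg after 7 or 14 doses for 7 genes each, and under Rapa 1 mg/kg after 7 doses for 5 and after 14 doses for 3. Averaged over the 29 genes, CsA 25 mg/kg rats stood at 8.38 ± 0.03, 8.95 ± 0.11, 9.11 ± 0.10 and 8.97 ± 0.40 after 1, 7, 14 and 28 doses (SD, n = 4 each). Vehicle rats stood at 8.12 ± 0.12, 8.17 ± 0.19, 8.23 ± 0.15 and 8.09 ± 0.15 (n = 4, 4, 4 and 5). The 4 CsA rats lay above all vehicle rats at each of the 4 times. FK506 6 mg/kg stood at 7.99 ± 0.09, 8.09 ± 0.07 and 8.22 ± 0.14 after 1, 7 and 14 doses (n = 4, 4 and 3) and at 8.64 ± 0.27 after 28 (n = 5), so all FK506 rats lay above all vehicle rats after 28 doses and not before. Rapa 10 mg/kg stood at 8.09 ± 0.25, 7.78 ± 0.11, 7.80 ± 0.17 and 7.95 ± 0.19 (n = 4, 4, 4 and 6). After 7 and 14 doses all Rapa 10 mg/kg rats lay below all vehicle rats. The spread within CsA 25 mg/kg at 28 doses came from replicate 4, at 9.55, while the other 3 rats lay at 8.70, 8.69 and 8.93.

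**Figure D1:**
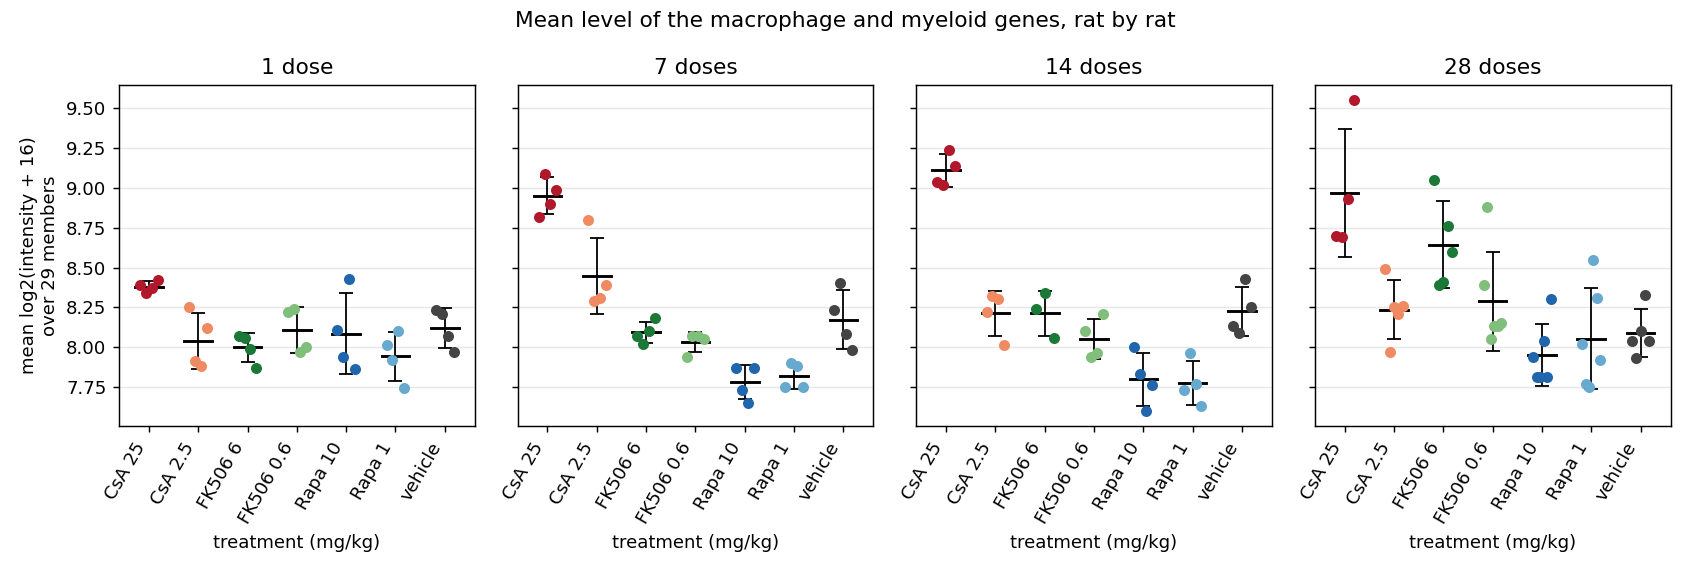
Mean log2(intensity + 16) over the 29 tested genes in each rat (points), with the group mean and SD (bars), for 7 treatments in mg/kg at 1, 7, 14 and 28 doses. CsA 25 mg/kg rats sit at 8.82 to 9.09 after 7 doses and 9.02 to 9.24 after 14 doses, above every other group of those times, and the highest point after 28 doses is CsA 25 mg/kg replicate 4 at 9.55.

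CsA 25 mg/kg raised most of these genes from 7 doses on, and lowered none of them by the test. After 7 doses 15 of the 29 rose and 0 fell (2.17% of all genes tested rose and 1.80% fell), with a median change of 0.79 over the 29 and -0.01 over all genes. After 14 doses 19 rose and 0 fell (4.75% of all genes rose and 3.14% fell), with a median of 0.89, and after 28 doses 23 rose and 0 fell (10.5% of all genes rose and 10.7% fell), with a median of 0.85. Every CsA rat lay above every vehicle rat for 19 of the 29 after 7 doses (4.06% of all genes), 22 after 14 doses (7.47%) and 16 after 28 doses (8.90%). The count after 28 doses was 16 without CsA 25 mg/kg replicate 4 and 21 without replicate 3, the array with zeros, and that after 7 doses was 10 without vehicle replicate 4 or CsA replicate 2 and 14 with the Gapdh difference as a covariate. All comparisons with vehicle at one time share the same vehicle rats.

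The Fc receptor module held the largest changes. Fcgr3a is a low-affinity receptor for immunoglobulin G of macrophages, monocytes and NK cells. After 14 doses it stood at 10.68, 10.40, 11.05 and 11.03 in CsA 25 mg/kg rats, against 8.11, 7.63, 8.39 and 8.46 in vehicle rats. The gap between the groups was wider than the spread within either. It rose by 2.64 (SE 0.32, adjusted p = 4.09e-09), which is 6.24-fold, after 14 doses, and rose by 2.25 after 7 and by 2.00 after 28, when it stood at 9.24, 9.54, 9.80 and 10.93, against 7.93, 7.71, 7.45, 8.36 and 7.94 in vehicle rats. Fcer1g, the gamma chain through which Fcgr3a signals, was at 11.36, 11.84, 11.44 and 11.56 in CsA rats after 7 doses, against 10.22, 10.50, 9.91 and 9.68 in vehicle rats. The groups did not overlap at this or the later times, and the rise was 1.47, 1.52 and 1.40 after 7, 14 and 28 doses (2.64-fold at the last, SE 0.24, adjusted p = 5.82e-06). Pilra, an inhibitory receptor of myeloid cells known from human and mouse that recognizes sialylated proteins, stood at 9.02, 9.20, 8.42 and 9.16 in CsA rats after 7 doses, against 6.63, 5.87, 6.25 and 6.77 in vehicle rats, and rose by 2.57 (SE 0.38, adjusted p = 2.22e-06). It rose by 2.06 after 14 doses, when the CsA rats ranged most widely, at 8.43, 7.33, 7.63 and 9.21, and by 2.29 after 28. Tyrobp, the related adaptor, differed by 0.47 after 7 doses (adjusted p = 0.176), with overlapping groups, and rose by 0.87 and 0.83 after 14 and 28. So 3 of the 4 tested genes of this module rose after 7 doses and 4 of 4 afterwards. A further probe set of Pilra is shared with another gene and was not used.

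The 3 chains of C1q rose together after 14 and 28 doses. C1qa was at 9.64, 9.48, 10.26 and 9.84 in CsA 25 mg/kg rats after 14 doses, against 8.23, 8.72, 8.79 and 8.41 in vehicle rats, and C1qb at 8.75, 8.47, 9.25 and 8.67, against 7.31, 7.52, 8.25 and 7.45. No CsA rat overlapped the vehicle rats for either gene. C1qa rose by 1.27 (SE 0.26, adjusted p = 0.000331), C1qb by 1.16 and C1qc by 1.04. After 28 doses the rises were 1.06, 1.07 and 1.01, with CsA replicate 4 the highest rat for C1qa, at 10.43, and the other 3 at 8.87, 8.84 and 9.43. After 7 doses C1qa rose by 1.16 and C1qc by 0.79, and C1qb differed by 0.52 (adjusted p = 0.310). The C1qc call at that time was close to the limit (adjusted p = 0.0469) and was lost in 12 of 15 alternative analyses.

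Among the lineage markers, Adgre1, an adhesion receptor that marks resident macrophages in rodents, was at 7.80, 8.11, 8.31 and 8.06 in CsA 25 mg/kg rats after 7 doses, against 6.74, 6.81, 7.01 and 6.59 in vehicle rats. All 4 treated rats were above all vehicle rats, and the rise was 1.28 (2.43-fold, SE 0.33, adjusted p = 0.0117). After 14 doses it differed by 0.89 without passing the test (adjusted p = 0.0811), and after 28 it rose by 1.18, or by 0.86 and no longer past the test without CsA replicate 4. Cd68, a membrane protein of macrophage lysosomes, rose by 0.89, 1.08 and 0.93 after 7, 14 and 28 doses. Aif1, a calcium-binding protein that marks macrophages, rose by 1.15 and 0.85 after 7 and 28 doses and differed by 0.58 after 14 (adjusted p = 0.208). Csf1r moved less. It stood at 8.83, 8.76, 8.38 and 9.06 in CsA rats after 28 doses, against 8.46, 8.11, 8.28, 8.52 and 8.0 in vehicle rats. The ranges overlapped, and the rise was 0.48 (SE 0.13, adjusted p = 0.00482), while the differences after 7 and 14 doses (0.31 and 0.17) did not pass. Csf2rb, the shared signalling chain of the receptors for GM-CSF and related cytokines, differed by 0.48, -0.10 and -0.21, none past the test.

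Of the 8 genes shared by most leukocytes, 4 rose after 7 doses of CsA 25 mg/kg and 5 after 14 and after 28. Ptprc, the receptor phosphatase CD45 carried by nearly all white blood cells, stood at 8.46, 8.57, 8.69 and 8.57 in CsA rats after 14 doses, against 7.23, 7.18, 7.70 and 7.73 in vehicle rats. The CsA rats lay within a narrow range well above the vehicle rats, and Ptprc rose by 0.99, 1.11 and 1.14 after 7, 14 and 28 doses (SE 0.20, adjusted p = 6.50e-06 at the last). Spn, a heavily glycosylated surface protein of leukocytes, rose by 1.55, 1.43 and 1.05, the tetraspanin Cd53 by 0.80, 1.05 and 0.79, and the actin-binding Coro1a by 0.79, 0.89 and 0.70. Laptm5, a lysosomal membrane protein of blood cells, rose by 0.82 and 0.90 after 14 and 28 doses. Cd48, an adhesion ligand (0.39 after 28 doses), Hcls1, a cytoskeletal protein (0.37), and Arhgdib (0.22), did not pass at any of these times. The second probe sets of Ptprc and Laptm5 gave 0.86 and 1.11 after 28 doses, the same direction as the first. The Coro1a call after 7 doses (adjusted p = 0.0482) was lost in 9 of 15 alternatives.

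Itgb2, the beta chain of the leukocyte integrins, was the 1 tested gene among the integrins and chemokine receptors. It stood at 8.75, 8.54, 8.95 and 8.70 in CsA 25 mg/kg rats after 14 doses, against 7.94, 8.0, 8.12 and 8.23 in vehicle rats, with no overlap. It rose by 0.73 and 0.66 after 7 and 14 doses and differed by 0.36 after 28 (adjusted p = 0.118). Its partner chain Itgam and the chemokine receptors were dim. Itgam was at 4.85, 5.97, 5.31 and 6.55 in CsA rats after 28 doses, against 4.25, 4.38, 4.41, 5.56 and 4.26 in vehicle rats. All but 1 vehicle rat lay below the CsA rats. Cx3cr1, the receptor for fractalkine on monocytes and resident macrophages, was at 6.46, 6.50, 6.32 and 5.95 in CsA rats after 14 doses, against 5.38, 5.08, 5.30 and 4.63 in vehicle rats, without overlap. In a fit without the filter on dim genes Itgam after 28 doses (1.10, adjusted p = 9.55e-06) and Cx3cr1 after 14 (1.21, adjusted p = 0.0254) rose, and no other result of the 6 dim genes passed in the 24 comparisons with vehicle.

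Of the 3 tested scavenger and pattern receptors 1, 0 and 2 rose after 7, 14 and 28 doses. Mrc1, the mannose receptor of resident macrophages, stood at 7.44, 6.70, 7.55 and 7.31 in CsA 25 mg/kg rats after 7 doses, against 7.42, 8.54, 7.96 and 7.72 in vehicle rats. The ranges overlapped, and the differences were -0.66, 0.08 and 0.31 after 7, 14 and 28 doses, with adjusted p = 0.337, 0.928 and 0.577. The difference after 7 doses has a 95% interval of -1.36 to 0.04. Cd163, the scavenger receptor for haemoglobin bound to haptoglobin, was dim, at 5.04, 4.90, 4.34 and 5.86 in CsA rats after 28 doses and 4.32, 4.19, 4.23, 4.23 and 4.63 in vehicle rats, and its difference of 0.71 did not pass in the fit without the filter (adjusted p = 0.114). Cd14, the coreceptor for bacterial lipopolysaccharide, was not past the test after 7 or 14 doses (-0.24 and 0.28) and rose by 0.78 after 28. It then stood at 7.88, 7.67, 7.82 and 8.08 in CsA rats, against 6.67, 6.90, 7.04, 7.05 and 7.72 in vehicle rats, where the fifth vehicle rat overlapped. The vehicle group of 28 doses had the lowest Cd14 mean of all 28 groups, at 7.08. The comparisons of FK506 and Rapa with vehicle after 28 doses use the same group. Ly86, a secreted partner of a Toll-like receptor homologue, rose by 0.81 after 7 doses and 0.61 after 28, and differed by 0.61 after 14 (adjusted p = 0.0787).

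The 3 tested lysosomal and oxidase genes had smaller changes, with medians of 0.56, 0.80 and 0.69 after 7, 14 and 28 doses, against 1.86, 1.79 and 1.70 over the 4 Fc and paired receptors and adaptors. Cybb, the oxidase subunit, stood at 9.57, 10.23, 9.85 and 10.02 in CsA 25 mg/kg rats after 7 doses, against 9.31, 9.08, 8.81 and 8.89 in vehicle rats, with no overlap. It rose by 0.89, 0.80 and 0.93 after 7, 14 and 28 doses, and its second probe set gave 0.55 and 0.65 at the last 2 times. Ctss, the protease that trims the invariant chain of MHC class II, rose by 0.96 and 0.69 after 14 and 28 doses. Lyz2, the lysozyme of macrophages and granulocytes, rose by 0.51 and 0.39. Gpnmb, a lysosomal glycoprotein of macrophages and of injured epithelium, passed the test from 14 doses on. It differed by 1.01 after 7 doses (adjusted p = 0.0688) and rose by 1.82 after 14 and 2.11 after 28 (4.33-fold, SE 0.32, adjusted p = 3.67e-07). In the last comparison the CsA rats stood at 8.27, 8.09, 8.18 and 8.92, against 6.37, 6.05, 6.64, 6.27 and 5.91 in vehicle rats, far apart. Lgals3, a galectin that the same cells make, differed by -0.19 after 7 doses and rose by 0.90 and 0.86. Tubule genes moved at these 2 later times as well. Of 8 tubular injury genes 0 rose after 7 doses, 4 after 14 and 5 after 28. Their summed intensity was 20900 to 29200 in CsA rats after 14 doses, against 8730 to 13500 in vehicle rats, and 26700 to 34900 after 28 doses, against 6500 to 10500. The part of tubule cells in the Gpnmb and Lgals3 signal was not tested.

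**Figure D2:**
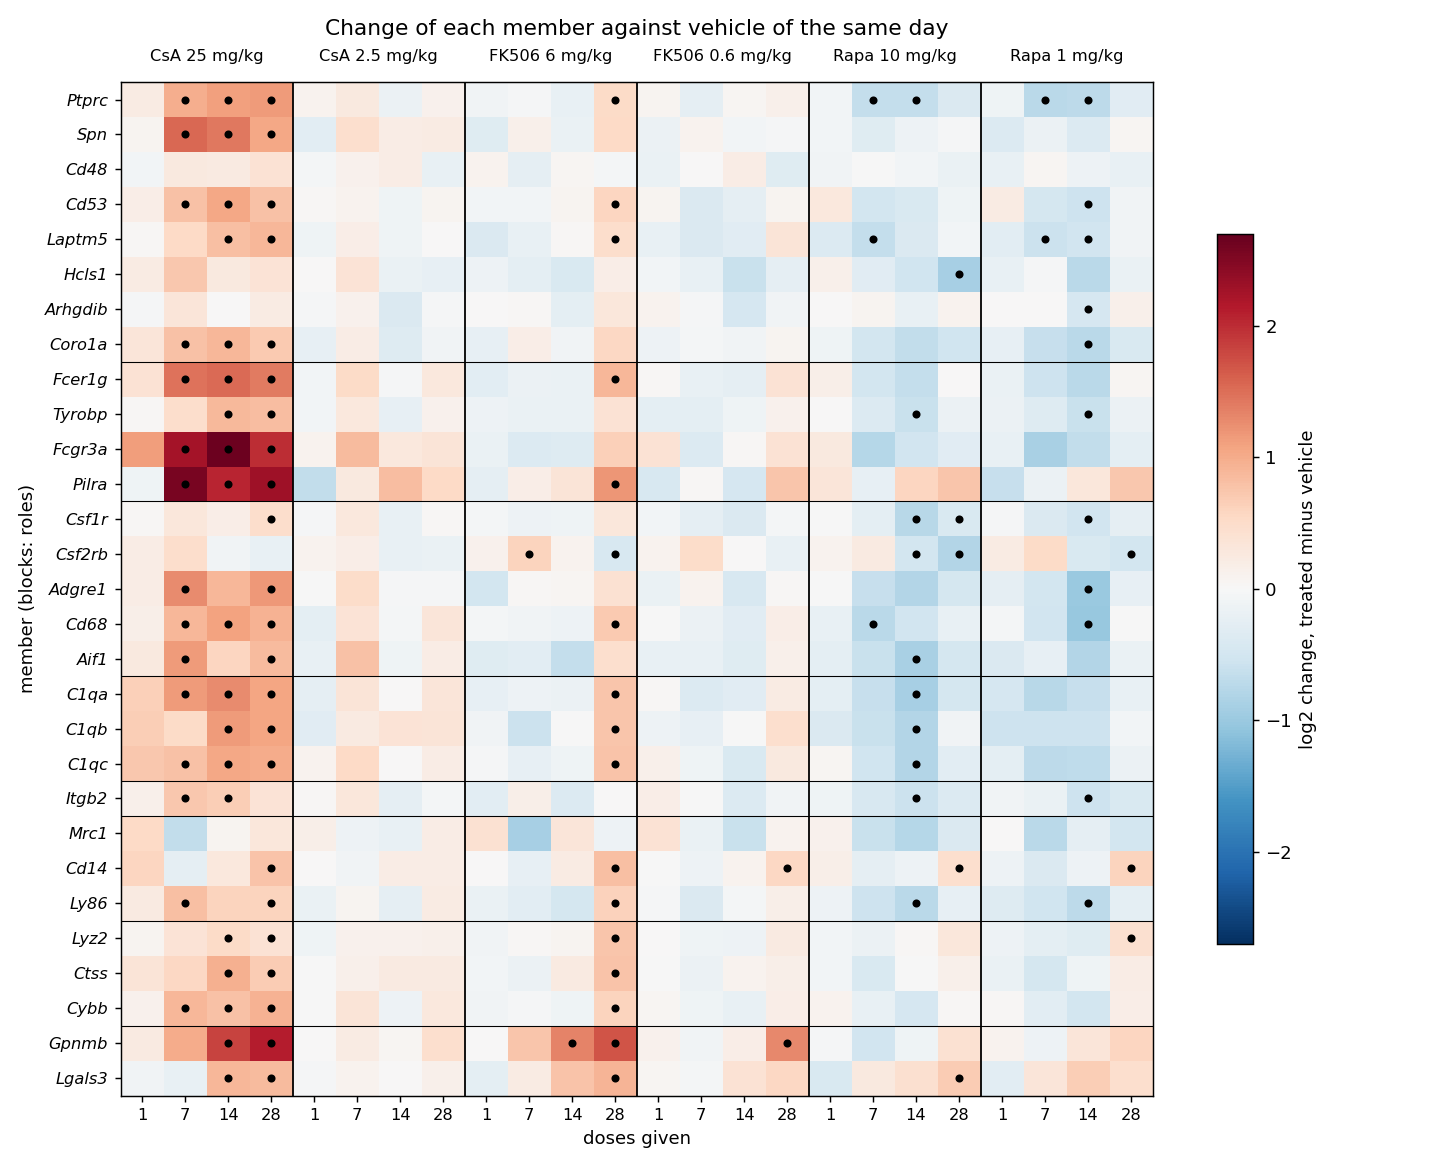
Log2 change of each of the 29 tested genes (rows, in blocks of shared role) against vehicle of the same time, for each drug, dose and number of doses (columns). Red is higher in treated rats, blue is lower, and a dot marks an adjusted p under 0.05. The dots lie mostly under CsA 25 mg/kg after 7, 14 and 28 doses (15, 19 and 23 higher), under FK506 6 mg/kg after 28 (16 higher, 1 lower) and, in blue, under both Rapa doses after 14 (10 and 11 lower).

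A single dose of CsA 25 mg/kg changed 0 of the 29 genes by the limma test, against 0.675% of all genes. An unadjusted p under 0.05 was found for 5 of the 29 and for 710 of all 10663 genes. The median over the 29 was 0.20, and 25 of 29 differences were positive. Fcgr3a had the largest difference, 1.12 (adjusted p = 0.0859), with 8.72, 8.51, 8.62 and 8.93 in CsA rats, against 7.98, 7.77, 7.29 and 7.26 in vehicle rats, and without CsA replicate 2 the count was 1. Replicates 3 and 4 of this CsA group were 2 of the 4 arrays with a log2 level of the liver gene Alb above 12, and without those arrays the count was also 0. At 2.5 mg/kg CsA changed 0 of the 29 at each of the 4 times, while limma called 0%, 0%, 0.0656% and 0% of all genes. An unadjusted p under 0.05 was found for 0, 5, 2 and 0 of the 29 after 1, 7, 14 and 28 doses. It was found for 246, 847, 749 and 425 of all 10663 genes. Median differences over the 29 were -0.04, 0.27, -0.06 and 0.19 at these times (0.00, 0.00, -0.01 and 0.00 over all genes). Positive differences numbered 10, 27, 12 and 22 of 29. The 2 doses were set against each other after 28 doses. At 25 mg/kg 20 of the 29 were higher than at 2.5 mg/kg (8.75% of all genes were higher), with a median difference of 0.72. Pilra differed by 1.75, Gpnmb by 1.66 and Fcgr3a by 1.65 (SE 0.31, adjusted p = 3.34e-05). Without CsA 25 mg/kg replicate 4 the count was 8, and in a fit to the arrays of that time alone it was 12.

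FK506 6 mg/kg raised 1 of these genes after 7 doses, 1 after 14 and 16 after 28, and lowered 1 after 28. After 1 dose 0 of the 29 were called, against 0.0281% of all genes by limma. An unadjusted p under 0.05 was then found for 1 of the 29 and for 665 of all 10663 genes. After 7 doses the 1 gene called was Csf2rb (0.61), and after 14 it was Gpnmb (1.34), so 3.45% of the 29 rose at each time, against 1.78% and 1.24% of all genes. The tubular injury genes were higher by then: 3 of 8 rose after 14 doses, with a summed intensity of 20400 to 22900 in FK506 rats, against 8730 to 13500 in vehicle rats. Leaving out any of 4 rats at 7 doses (vehicle replicate 4, FK506 replicates 2, 3 and 4) or any of 3 at 14 doses (vehicle replicate 4, FK506 replicates 1 and 2) brought the count to 0. After 28 doses 16 of the 29 rose and 1 fell (8.73% of all genes rose and 7.29% fell), with a median of 0.58. The largest rise was that of Gpnmb, 1.70 (SE 0.30, adjusted p = 1.59e-05), with 7.58, 7.57, 8.58, 8.58 and 7.43 in FK506 rats, against 6.37, 6.05, 6.64, 6.27 and 5.91 in vehicle rats. All FK506 rats lay above all vehicle rats. Of the 8 tubular injury genes 5 rose here, led by Havcr1 (3.65) and Clu (2.02), with a summed intensity of 16600 to 40000 in FK506 rats, against 6500 to 10500 in vehicle rats, and their part in the Gpnmb signal was not tested. Pilra rose by 1.19, Lgals3 by 0.91, Fcer1g by 0.90, Cd14 by 0.81, C1qc by 0.76, Ctss by 0.76 and Lyz2 by 0.74, and Csf2rb fell by 0.43. Of the 3 C1q chains and the 3 lysosomal and oxidase genes, 3 and 3 rose. Cd14 stood at 7.51, 7.57, 8.27, 7.95 and 8.12 in FK506 rats, against 6.67, 6.90, 7.04, 7.05 and 7.72 in vehicle rats, where 1 vehicle rat overlapped. Itgb2 (0.01), Mrc1 (-0.13) and Adgre1 (0.42, adjusted p = 0.364) did not pass.

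Fcgr3a, the gene with the largest rise after 14 doses of CsA, did not pass under FK506 6 mg/kg. After 28 doses it stood at 9.94, 8.13, 7.91, 8.23 and 8.39 in FK506 rats, against 7.93, 7.71, 7.45, 8.36 and 7.94 in vehicle rats. Replicate 1 alone was high, and the difference was 0.64 (adjusted p = 0.122). In C1qa the same rat was the highest, with 9.80, 8.37, 8.59, 9.40 and 9.25 in FK506 rats, against 8.30, 8.07, 8.50, 8.42 and 8.37 in vehicle rats, and the rise was 0.75. The number of genes called was 9 without FK506 replicate 1 and 11 without replicate 4. With the hybridization control level, which differed between these groups, as a covariate 6 genes were called. Fcer1g (0.80), Pilra (1.00), Cd68 (0.64), Ctss (0.55) and Lgals3 (0.63) and all 3 C1q chains (0.47, 0.39 and 0.47) lost their calls. The 6 were Gpnmb (1.06), Ly86 (0.94), Ptprc (0.67), Cd14 (0.60), Lyz2 (0.58) and Csf2rb (-0.57). In a fit to the arrays of that time alone 11 were called. At 0.6 mg/kg FK506 changed 0 genes after 1, 7 and 14 doses by limma (0%, 1.93% and 0.872% of all genes). An unadjusted p under 0.05 was found for 0, 3 and 4 of the 29 and for 375, 1621 and 1482 of all 10663 genes. After 28 doses FK506 0.6 mg/kg raised 2 of the 29 (2.59% of all genes rose), Gpnmb by 1.29 and Cd14 by 0.55. There 4 of the 8 tubular injury genes rose, with 14300 to 21700 in FK506 rats, against 6500 to 10500 in vehicle rats. The count was 1 without any one of vehicle replicates 1 to 4. The 2 FK506 doses after 28 doses differed in 2 genes, Lyz2 (0.49) and Ctss (0.61), both higher at 6 mg/kg (0.610% of all genes were higher), in 0 without FK506 6 mg/kg replicate 1 or 4 and in 4 without replicate 2 or 3.

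Rapa lowered 10 and 11 of these genes after 14 doses at both doses given. At 10 mg/kg 10 of the 29 fell and 0 rose (5.30% of all genes fell and 5.19% rose), with a median of -0.52, and at 1 mg/kg 11 fell and 0 rose (4.97% of all genes fell and 4.08% rose), with a median of -0.55. At each dose 26 of the 29 differences were negative, and for 11 genes at 10 mg/kg (8.27% of all genes) and 14 at 1 mg/kg (6.12%) every Rapa rat lay below every vehicle rat. All 3 chains of C1q fell at 10 mg/kg, C1qa by 0.90 (SE 0.26, adjusted p = 0.0127), C1qb by 0.80 and C1qc by 0.80. C1qa stood at 7.82, 7.73, 7.13 and 7.84 in Rapa rats, against 8.23, 8.72, 8.79 and 8.41 in vehicle rats, without overlap. At 1 mg/kg they differed by -0.63, -0.55 and -0.69, which did not pass. Csf1r fell by 0.75 at 10 mg/kg (SE 0.14, adjusted p = 8.26e-05) and by 0.51 at 1 mg/kg. It stood at 7.87, 7.71, 7.70 and 7.45 in Rapa 10 mg/kg rats, 8.11, 7.92, 7.93 and 7.72 in Rapa 1 mg/kg rats and 8.42, 8.30, 8.24 and 8.76 in vehicle rats. Both Rapa groups lay below every vehicle rat. Ptprc, Tyrobp, Itgb2 and Ly86 also fell at both doses, by 0.65, 0.61, 0.58 and 0.72 at 10 mg/kg and by 0.70, 0.60, 0.56 and 0.70 at 1 mg/kg. At 10 mg/kg Aif1 fell by 0.87 and Csf2rb by 0.49. The second probe sets did not all move with the first: at 10 mg/kg they gave 0.05 for Ptprc and 0.10 for Aif1, and at 1 mg/kg -0.23 for Ptprc and -0.02 for Laptm5. At 1 mg/kg Cd68 fell by 1.02, Adgre1 by 1.00, Coro1a by 0.73, Cd53 by 0.56, Laptm5 by 0.52 and Arhgdib by 0.46. Fcer1g stood at 10.19, 9.72, 9.26 and 9.33 in Rapa 10 mg/kg rats and 10.22, 10.03, 10.32 and 10.48 in vehicle rats, with overlap, and did not pass (-0.64, adjusted p = 0.0941). Lyz2 (0.04), Ctss (-0.02), Gpnmb (-0.11) and Lgals3 (0.43) were also not past the test.

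These counts depended on single rats. At 10 mg/kg the count of 10 was 1 without vehicle replicate 3, 5 without vehicle replicate 4, 1 without Rapa replicate 3 and 4 without Rapa replicate 4. At 1 mg/kg the count of 11 was 5, 4 and 3 without vehicle replicates 1, 3 and 4, and 5, 3 and 1 without Rapa replicates 1, 3 and 4. Csf1r at 10 mg/kg kept its call in all 15 alternatives, at -0.64 to -0.81. After 7 doses Rapa 10 mg/kg lowered 3 genes (4.30% of all genes fell), Ptprc by 0.64, Laptm5 by 0.64 and Cd68 by 0.73, with a median of -0.49, and Rapa 1 mg/kg lowered 2 (2.61% of all genes), Ptprc by 0.72 and Laptm5 by 0.57. The count of 3 was 0 without vehicle replicate 2 and 1 without vehicle replicate 1 or any single Rapa rat. The count of 2 was 0 without vehicle replicate 1 or 2 or Rapa replicate 1 or 4, and 1 without Rapa replicate 3. The Gapdh difference was 0.40 ± 0.06 and 0.42 ± 0.05 in Rapa 10 and 1 mg/kg rats at that time, against 0.76 ± 0.13 in vehicle rats, and with it as a covariate the counts were 1 and 0. After 28 doses the shares were close to those of all genes. At 10 mg/kg 2 of 29 rose (6.90%, against 7.57% of all genes) and 3 fell (10.3%, against 8.16%), and at 1 mg/kg 2 rose (against 4.75% of all genes) and 1 fell (against 5.09%). Those called at 10 mg/kg were Cd14 (0.45) and Lgals3 (0.69) among rises and Hcls1 (-0.89), Csf2rb (-0.79) and Csf1r (-0.42) among falls. At 1 mg/kg they were Cd14 (0.61), Lyz2 (0.43) and Csf2rb (-0.49). The summed intensity of the tubular injury genes was 11400 to 15400 in Rapa 10 mg/kg rats, against 6500 to 10500 in vehicle rats. The part of tubule cells in the Lgals3 signal was not tested. The count of 5 was 3 without vehicle replicate 2, and the count of 3 was 1 without vehicle replicate 3. The hybridization control level was 9.66 ± 1.20 in the Rapa 1 mg/kg arrays, against 10.67 ± 0.06 in vehicle arrays. With this level as a covariate the count of 3 was 1. Csf1r stood at 7.56 in the lowest, 7.87 in the median and 8.08 in the highest of 6 Rapa 10 mg/kg rats after 28 doses, against 8.46, 8.11, 8.28, 8.52 and 8.0 in vehicle rats. The 2 Rapa doses after 28 doses differed in 0 of the 29 by limma, with 0.122% of all genes called. An unadjusted p under 0.05 was found for 2 of the 29 and for 902 of all 10663 genes. After 1 dose neither dose changed any of the 29 by limma, against 2.82% and 3.08% of all genes called at 10 and 1 mg/kg. There 1 of the 29 had an unadjusted p under 0.05 at each dose, against 1550 and 1648 of all 10663 genes.

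**Figure D3:**
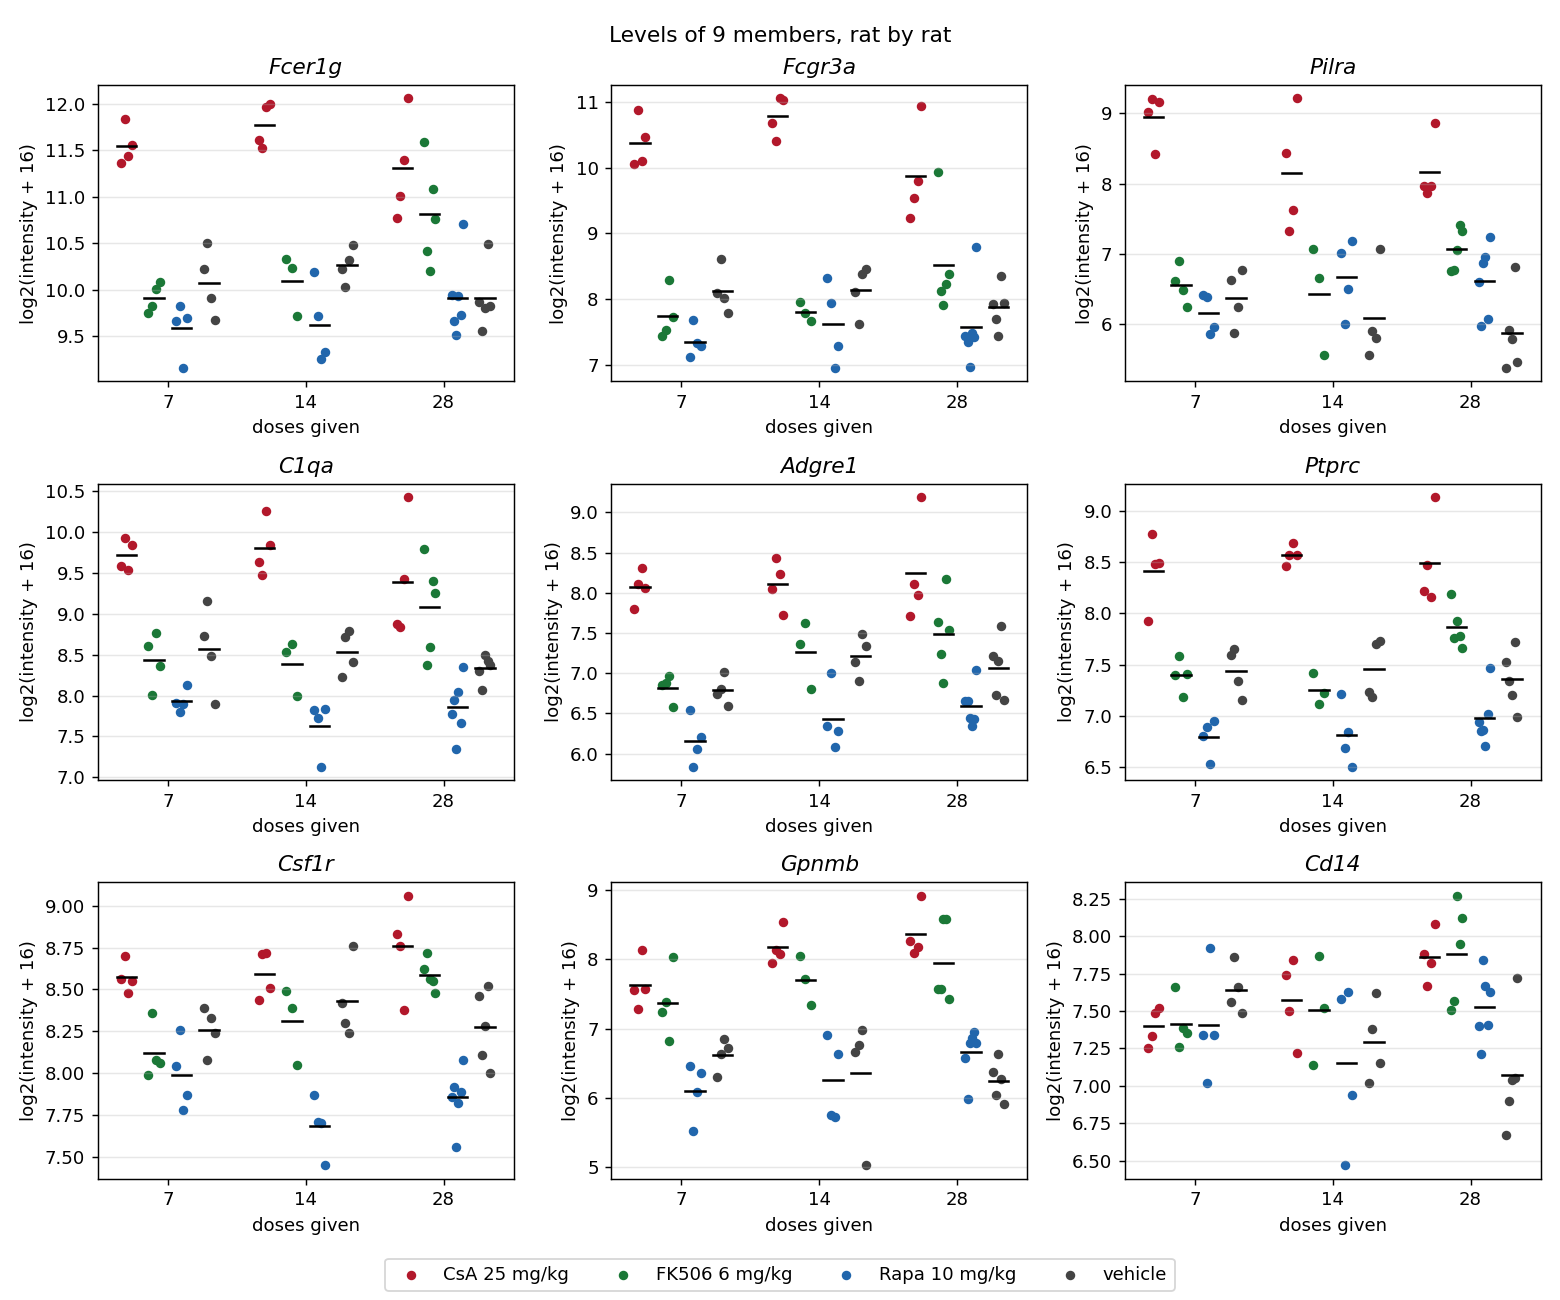
Levels, as log2(intensity + 16), of 9 genes in each rat (points) with the group mean (bar), for CsA 25 mg/kg, FK506 6 mg/kg, Rapa 10 mg/kg and vehicle at 7, 14 and 28 doses. CsA rats stand apart for Fcgr3a, Fcer1g and Pilra after 7 and 14 doses, Rapa rats lie lowest for C1qa and Csf1r after 14, and FK506 replicate 1 is the lone high FK506 point of Fcgr3a after 28, at 9.94.

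The drugs were also set against each other directly. The amounts differ in mg/kg, so these comparisons hold for the amounts given, and each drug group served in 2 of the 3 comparisons of a time. CsA 25 mg/kg differed from Rapa 10 mg/kg in 23 of the 29 after 7 doses (9.43% of all genes differed), 23 after 14 (14.7%) and 24 after 28 (19.9%), each of them higher under CsA, with medians of 1.18, 1.46 and 0.99. The largest differences were those of Fcgr3a, 3.02, 3.16 and 2.30 (SE 0.32, 0.32 and 0.29). After 14 doses Fcgr3a stood at 10.68, 10.40, 11.05 and 11.03 in CsA rats and 8.33, 7.95, 6.96 and 7.29 in Rapa rats. C1qa differed by 2.17 and Fcer1g by 2.15 at that time. With single rats left out the counts of these 3 comparisons were 21 to 24, although no rat of the group of 6 at 28 doses of Rapa was left out. CsA 25 mg/kg exceeded FK506 6 mg/kg in 17 after 7 doses (0.769% of all genes were higher), 18 after 14 (1.43%) and 2 after 28 (2.02%), with medians of 0.88, 0.97 and 0.33. After 7 doses Fcgr3a differed by 2.62, Pilra by 2.39, Fcer1g by 1.63 and Aif1 by 1.44. The count was 10 without CsA replicate 2 and 11 without FK506 replicate 2. After 28 doses the 2 genes were Fcgr3a (1.36, SE 0.31, adjusted p = 0.00265) and Ptprc (0.63), and without FK506 replicate 2 or 5 the count was 1. For the other 27 the test did not separate the drugs: C1qa differed by 0.31, with a 95% interval of -0.17 to 0.79, and Gpnmb by 0.41, with an interval of -0.22 to 1.05.

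FK506 6 mg/kg exceeded Rapa 10 mg/kg in 2 genes after 7 doses (4.09% of all genes were higher), 3 after 14 (4.84%) and 20 after 28 (6.83%), with medians of 0.33, 0.39 and 0.71. The 2 drugs bind the same intracellular protein and have different targets. After 7 doses the 2 genes were Gpnmb (1.26) and Itgb2 (0.58), and after 14 the 3 were Gpnmb (1.45), Csf1r (0.63) and Csf2rb (0.59). After 28 doses the largest differences were Gpnmb (1.28), C1qa (1.23), Coro1a (1.08), Hcls1 (1.07) and C1qc (1.04). The count after 28 doses was 13 without FK506 replicate 1 and 9 with the hybridization control level as a covariate. After 7 doses it was 0 without FK506 replicate 4 or Rapa replicate 2 and 1 without FK506 replicate 2 or Rapa replicate 1 or 3.

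**Figure D4:**
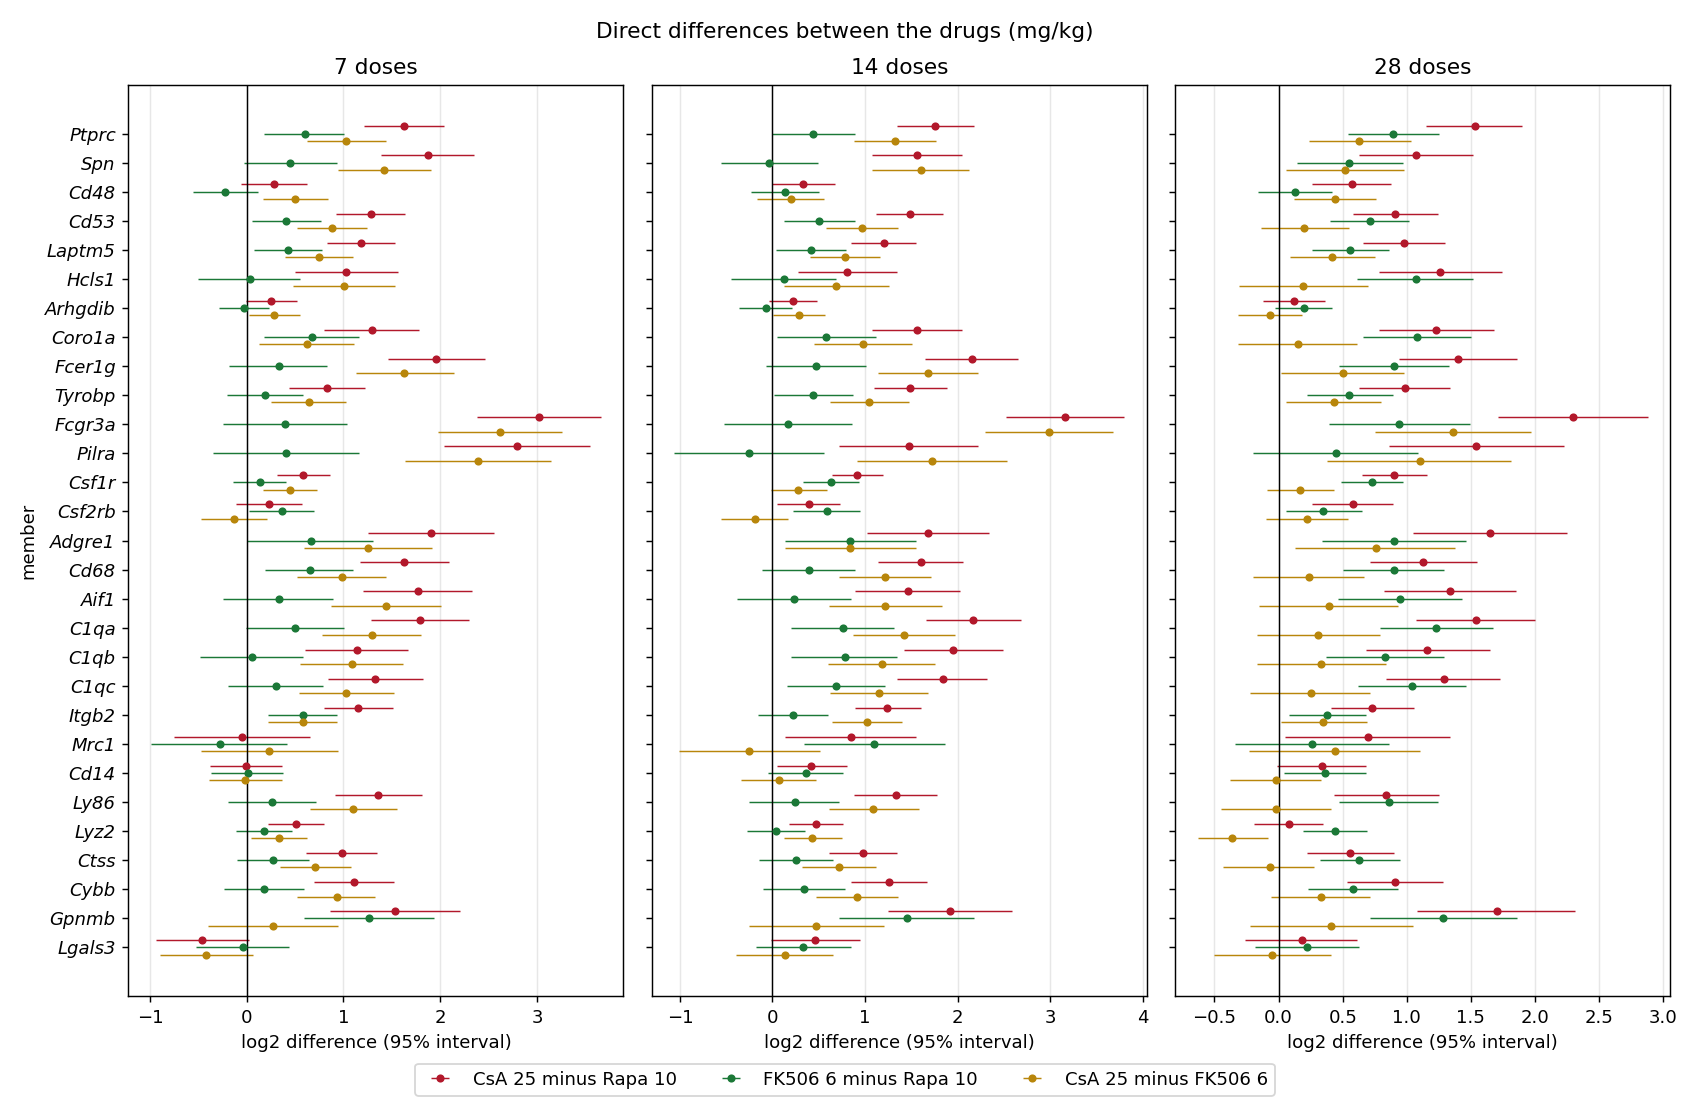
Differences between the drugs at their higher doses for each of the 29 tested genes (rows) after 7, 14 and 28 doses (panels), as log2 difference with its 95% interval, for CsA 25 minus Rapa 10, FK506 6 minus Rapa 10 and CsA 25 minus FK506 6 mg/kg. The CsA minus FK506 points lie mostly right of 0 after 7 and 14 doses (17 and 18 genes past the test) and nearer to 0 after 28 (2 genes), where the FK506 minus Rapa points have moved right (20 genes).

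Whether an effect grew with time was tested as the change from vehicle after 28 doses minus that after 7. Under FK506 6 mg/kg 4 of the 29 gained (2.77% of all genes) and 1 lost (2.04%), with a median gain of 0.69. C1qb had the largest gain, 1.30 (SE 0.36, adjusted p = 0.0214), with an effect of 0.74 after 28 doses and -0.57 after 7. Cd14 gained 1.04, Ctss 0.92 and Lyz2 0.71, and Csf2rb had -1.04. The count of 5 was 2 without vehicle replicate 2 of 7 doses and 3 without FK506 replicate 1 of 28 doses, and 8 or 10 without vehicle replicate 4, FK506 replicate 3 or FK506 replicate 2 of 28 doses. Under CsA 25 mg/kg, Cd14 (1.03) and Lgals3 (1.05) gained (3.35% of all genes), and the median over the 29 was 0.03. Cd14 kept its call in all 24 alternatives and Lgals3 lost it in 12, among them those without CsA replicate 4 of 28 doses and without vehicle replicate 2 of 7 doses. The Cd14 gains under FK506 and CsA both rest in part on the vehicle rats of 28 doses. Their Cd14 mean, 7.08, was the lowest of all 28 groups. The count of 2 was 1 without any of 9 single rats, namely vehicle replicates 2, 3 and 4 and CsA replicates 2 and 4 of 7 doses, and vehicle replicates 1, 2 and 4 and CsA replicate 4 of 28 doses. Under Rapa 10 mg/kg 1 gene differed, Csf2rb at -1.04 (0.975% of all genes were lower). Both Csf2rb differences of -1.04 rest in part on the vehicle rats of 28 doses. Their Csf2rb mean, 8.54, was the highest of all 28 groups. The Csf2rb falls after 28 doses of FK506 6, Rapa 10 and Rapa 1 mg/kg use the same vehicle rats. Csf2rb was also the 1 gene of the 29 that differed between vehicle rats of 28 doses and of 1 dose, where 0.910% of all genes rose. It was higher by 0.98 after 28 than after 1 dose of olive oil (SE 0.16, adjusted p = 5.04e-05). Its levels were 8.65, 8.47, 8.70, 8.34 and 8.56 in vehicle rats after 28 doses, against 7.63, 7.37, 7.65 and 7.59 after 1. Age and the number of injections both differed between these groups and cannot be told apart. The 2 groups did not overlap, and without vehicle replicate 4 of 28 doses 2 genes were called.

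Some other myeloid genes that are not among the 37 also rose under CsA 25 mg/kg. They were listed, like the 37, with earlier results of these data known. Of 46 listed, 38 were on the array and 30 were tested. After 7, 14 and 28 doses of CsA 25 mg/kg 7, 11 and 12 of the 30 rose (2.17%, 4.75% and 10.5% of all genes did) and 0 fell, with medians of 0.40, 0.48 and 0.47. After 28 doses they were led by the GTPase Rac2 of the phagocyte oxidase (1.12), the lectin Clec4a (1.1), the Src-family kinase Fgr (1.0) and the adaptor Lcp2 (0.88). Under FK506 6 mg/kg after 28 doses 7 rose, against 8.73% of all genes, again with Rac2 (1.14) highest. Under Rapa 10 mg/kg 3 and 4 of the 30 fell after 7 and 14 doses, against 4.30% and 5.30% of all genes, and 2 after 28, against 8.16%. Under Rapa 1 mg/kg 4 fell after 14 doses, against 4.97% of all genes. Among the genes that fell after 14 doses was the myeloid transcription factor Irf8 (-0.58 at 10 mg/kg and -0.67 at 1 mg/kg). Growth factors and attractants of macrophages did not move as a block. Of 8 tested, the chemokine Ccl4 rose after 7 and 14 doses of CsA 25 mg/kg (0.99 and 1.23). After 28 doses Ccl3 (0.91) and Ccl2 (0.84) rose, and Csf1, the main ligand of Csf1r, and Cx3cl1, the ligand of Cx3cr1, fell by 0.57 and 0.36. Il34, the other ligand of Csf1r, fell by 0.64 after 28 doses of Rapa 10 mg/kg. At Rapa 1 mg/kg it fell by 0.60 and 0.59 after 14 and 28 doses. The chemokine Ccl5 fell by 0.73 and 0.66 after 14 and 28 doses of Rapa 10 mg/kg and by 0.88 after 14 of Rapa 1 mg/kg. Other genes of the list rose under Rapa: Csf1 by 0.52 after 7 doses of 10 mg/kg and Ccl4 by 0.83 after 14 doses of 1 mg/kg. Cx3cl1 rose by 0.50 after 1 dose of either amount. The Gapdh difference was then 0.73 ± 0.15 at 10 mg/kg and 0.69 ± 0.16 at 1 mg/kg, against 0.32 ± 0.07 in vehicle rats. The part of RNA quality in this rise was not tested.

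Markers of other white cells were mostly dim. Of 16 T and NK cell genes on the array 3 were tested, of 7 B and plasma cell genes 3, of 5 dendritic cell genes 2, of 9 neutrophil genes 1 and of 7 mast cell genes 1. The T and NK list had a summed intensity of 657 to 785 in CsA 25 mg/kg rats after 14 doses, against 515 to 824 in vehicle rats, and 0 of its 3 tested genes passed there. Under Rapa 10 mg/kg after 14 doses it was 382 to 445, against the same vehicle rats, and the T cell kinase Lck fell by 0.77. Zap70 of the same list fell by 0.67 after 28 doses of CsA 25 mg/kg. The dendritic cell list had 459 to 734 in CsA rats after 14 doses, against 337 to 483 in vehicle rats, and the integrin chain Itgax rose by 0.93. The part of these cells in the changes of genes shared by all leukocytes was not tested. S100a9, a calcium-binding protein of neutrophils and monocytes and the 1 tested neutrophil gene, rose under CsA 25 mg/kg after 28 doses (1.92), under Rapa 10 mg/kg after 28 (2.60) and under Rapa 1 mg/kg after 14 (2.10) and 28 (2.16). In the 14-dose comparison 11 of the 29 genes followed here fell. The summed intensity of the neutrophil list after 28 doses was 99.1 to 4770 in CsA rats, 263 to 2070 in Rapa 10 mg/kg rats and 109 to 209 in vehicle rats. Of 8 MHC class II genes 3 rose under FK506 6 mg/kg after 28 doses, RT1-Da (0.83), RT1-Db1 (0.78) and RT1-DMb (0.59), and 0 under CsA 25 mg/kg after 7, 14 or 28. Of 2 red blood cell genes the globin Hbb fell by 1.56 after 7 doses of CsA 25 mg/kg, with a summed intensity of both of 1500 to 1920 in CsA rats, against 4510 to 5930 in vehicle rats. The sum was also low after 7 doses of FK506 6 mg/kg, at 1200 to 2070.

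Cells of the kidney itself were read in the same way under CsA 25 mg/kg after 28 doses. Of 8 endothelial genes 3 fell, Tek (-1.46), Kdr (-0.40) and Emcn (-0.33), of 7 proximal tubule genes 2 fell, Aqp1 (-0.21) and Lrp2 (-0.18), and of 6 fibroblast genes 2 rose, the matrix proteoglycan Dcn (0.77) and the receptor Pdgfrb (0.38). After 7 and 14 doses, when 15 and 19 of the macrophage and myeloid genes rose, limma called 0 genes of these 3 lists. Under FK506 6 mg/kg after 28 doses Dcn (0.88) and Pdgfrb (0.43) rose as well. Dcn also rose after 28 doses of Rapa 10 mg/kg (0.96) and Rapa 1 mg/kg (0.77), against the same vehicle rats. Under Rapa 10 mg/kg after 14 doses, where C1q and Csf1r fell, the collagens Col1a2 (-1.38), Col1a1 (-1.34) and Col3a1 (-1.20) fell. Of the B and plasma cell genes, Jchain rose by 1.13 after 14 doses of CsA 25 mg/kg and Blnk by 0.88 after 28 of FK506 6 mg/kg. The tested mast cell gene and the 5 tested liver genes gave no calls in 5 of these comparisons. These were CsA 25 mg/kg after 7, 14 and 28 doses, FK506 6 mg/kg after 28 and Rapa 10 mg/kg after 14.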

How the data were processed

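RNA from kidney was hybridized to Affymetrix rat expression arrays, 1 for each of 120 rats. The deposited values are linear intensities per probe set; per the labels' protocols, cRNA was labelled with biotin in one cycle from the 3-prime end and scanned with GeneChip Operating Software. The probe summarization and the method of scaling are not given in the sources used here. A trimmed mean of the intensities was 233 in CsA 25 mg/kg at 28 doses, replicate 3, the array with zeros. It was 250 in all other arrays. Arrays give no counts, and the number of rats limits the precision.

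From the deposited intensities, log2(intensity + 16) was computed and quantile normalized over 31099 probe sets. Probe sets were named from GEO's platform annotation, and a gene was read from its brightest probe set that maps to it alone. The dimmest 25% of 14217 genes (3554) were left out. The other 10663 were fitted with limma 3.58.1 in R 4.3.3, with 1 mean per group over all 120 arrays, and p-values were Benjamini-Hochberg adjusted within each of 40 comparisons. The procedure was tested on simulated data. The labels describe separate rats, and replicate numbers follow the order of deposition and pair nothing. No labels give scan dates or batches.

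The genes and lists were chosen with earlier results of these data known. The rule for named genes gives the called genes with the largest change in each comparison, those of each role that did not pass where the role is described, values by rat for the gene of each role with the largest change at 28 doses of CsA 25 mg/kg and for others fixed by name (17 genes in all, of which Itgam and Csf2rb were added after their values were seen), and up to 4 called genes of every other list. The lists (number on the array, number tested) were other myeloid genes (38, 30), growth factors and attractants (10, 8), MHC class II (8, 8), neutrophil (9, 1), T and NK cell (16, 3), B and plasma cell (7, 3), dendritic cell (5, 2), mast cell (7, 1), endothelium (8, 8), fibroblast (6, 6), proximal tubule (7, 7), tubular injury (8, 8), red blood cell (2, 2) and liver (6, 5). Alternatives were no quantile normalization, an offset of 1, no filter, the mean of a gene's probe sets, the arrays of the compared times alone, a covariate for the Gapdh ratio or for the hybridization controls, leaving out arrays with an Alb level above 12, and leaving out each rat in groups of up to 5.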

Additional observations from a re-analysis of the deposited data

Results flagged for a closer look

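Single rats stood far from the others of their group, by Dixon's test at the 95% level, in 19 of 288 sets of values (17 genes given by rat and the mean over the 29, in 16 groups of 4 to 6 rats). Chance flags about 1 in 20 such groups. Pilra was 8.86 in CsA 25 mg/kg replicate 4 after 28 doses, against 7.86 to 7.97 in the other 3 rats. Fcgr3a was 9.94 in FK506 6 mg/kg replicate 1 after 28 doses, against 7.91 to 8.39 in the others. Replicate 6 of Rapa 10 mg/kg after 28 doses was high in 3 genes, with 10.71 for Fcer1g (others 9.51 to 9.94), 8.79 for Fcgr3a (others 6.98 to 7.49) and 4.97 for the dim Itgam (others 4.25 to 4.46).

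In Rapa 10 mg/kg rats after 14 doses, C1qa was 7.13 in replicate 3 (others 7.73 to 7.84), and replicate 4 had 4.82 for Cd163 (others 4.21 to 4.25) and 4.84 for Cx3cr1 (others 6.24 to 6.26), both genes being dim. After 7 doses Mrc1 was 6.43 in Rapa 10 mg/kg replicate 2 (others 7.52 to 7.63) and Cybb was 8.85 in FK506 6 mg/kg replicate 1, within a narrow group (others 9.02 to 9.04). Itgam was 5.08 in CsA 25 mg/kg replicate 1 after 7 doses (others 4.32 to 4.39). After 1 dose of FK506 6 mg/kg, Adgre1 was 7.02 in replicate 1 (others 6.36 to 6.44) and Pilra 6.06 in replicate 3 (others 6.92 to 7.10).

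Among vehicle rats, Pilra was 7.42 in replicate 2 after 1 dose (others 6.85 to 6.88), Itgam 4.65 in replicate 3 after 7 doses (others 4.30 to 4.36) and 5.56 in replicate 4 after 28 (others 4.25 to 4.41), and Csf2rb 7.18 in replicate 4 after 7 doses (others 7.57 to 7.65). Cd163 was 4.40 in replicate 4 after 7 doses (others 5.00 to 5.10) and Gpnmb 5.03 in replicate 4 after 14 doses (others 6.66 to 6.98). That vehicle rat belongs to the comparisons in which Gpnmb was called after 14 doses.

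The change from vehicle differed between 28 and 7 doses, by the limma test of that difference, in 8 cases. Under FK506 6 mg/kg it was 1.30 for C1qb, 1.04 for Cd14, 0.92 for Ctss, 0.71 for Lyz2 and -1.04 for Csf2rb. Under CsA 25 mg/kg it was 1.05 for Lgals3 and 1.03 for Cd14. Under Rapa 10 mg/kg it was -1.04 for Csf2rb.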

How the results depend on the processing

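No gene followed here reversed the direction of a call in any alternative run. The counts of genes called under CsA 25 mg/kg ran, with single rats left out, from 10 to 18 of 29 after 7 doses (15 with all rats), 17 to 19 after 14 (19) and 16 to 24 after 28 (23), and 0 to 1 after 1 dose (0). With single rats left out, in groups of up to 5 rats and so in none of the groups of 6 (FK506 0.6, Rapa 10 and Rapa 1 mg/kg at 28 doses), the count was 0 to 1 for FK506 6 mg/kg after 7 doses (1), 0 to 1 for FK506 6 mg/kg after 14 doses (1), 9 to 19 for FK506 6 mg/kg after 28 doses (17), 1 to 2 for FK506 0.6 mg/kg after 28 doses (2) and 0 to 4 for Rapa 10 mg/kg after 7 doses (3), with the count of all rats in parentheses. It was 1 to 10 for Rapa 10 mg/kg after 14 doses (10), 3 to 6 for Rapa 10 mg/kg after 28 doses (5), 0 to 2 for Rapa 1 mg/kg after 7 doses (2), 1 to 9 for Rapa 1 mg/kg after 14 doses (11) and 1 to 4 for Rapa 1 mg/kg after 28 doses (3). The range was 0 to 2 for FK506 6 against Rapa 10 mg/kg after 7 doses (2), 10 to 15 for CsA 25 against FK506 6 mg/kg after 7 doses (17), 13 to 21 for FK506 6 against Rapa 10 mg/kg after 28 doses (20), 1 to 3 for CsA 25 against FK506 6 mg/kg after 28 doses (2) and 8 to 22 for CsA 25 against CsA 2.5 mg/kg after 28 doses (20). It came to 0 to 4 for FK506 6 against FK506 0.6 mg/kg after 28 doses (2), 1 to 3 for the CsA 25 mg/kg difference between 28 and 7 doses (2), 2 to 10 for the FK506 6 mg/kg difference between 28 and 7 doses (5) and 1 to 2 for vehicle after 28 against 1 dose (1). Without quantile normalization the count was 1 for FK506 0.6 mg/kg after 28 doses, Rapa 10 mg/kg after 7 doses, Rapa 1 mg/kg after 7 doses, FK506 6 against Rapa 10 mg/kg after 7 doses and CsA 25 against FK506 6 mg/kg after 28 doses. Without the filter on dim genes the count was 1 for Rapa 1 mg/kg after 7 doses, CsA 25 against FK506 6 mg/kg after 28 doses and the CsA 25 mg/kg difference between 28 and 7 doses. With the mean of a gene's probe sets the count was 1 for Rapa 1 mg/kg after 7 doses and CsA 25 against FK506 6 mg/kg after 28 doses. Fitting only the arrays of the compared times, the count was 0 for FK506 6 mg/kg after 7 doses, FK506 6 mg/kg after 14 doses, CsA 25 against FK506 6 mg/kg after 28 doses and FK506 6 against FK506 0.6 mg/kg after 28 doses, 1 for FK506 0.6 mg/kg after 28 doses and the CsA 25 mg/kg difference between 28 and 7 doses, 3 for Rapa 10 mg/kg after 28 doses, 4 for Rapa 1 mg/kg after 7 doses, 5 for FK506 6 against Rapa 10 mg/kg after 7 doses, 6 for FK506 6 against Rapa 10 mg/kg after 14 doses, 11 for FK506 6 mg/kg after 28 doses, and 12 for CsA 25 against CsA 2.5 mg/kg after 28 doses. With the Gapdh ratio as a covariate the count was 0 for FK506 6 mg/kg after 7 doses, Rapa 1 mg/kg after 7 doses and the Rapa 10 mg/kg difference between 28 and 7 doses, and 1 for Rapa 10 mg/kg after 7 doses and FK506 6 against FK506 0.6 mg/kg after 28 doses. With the hybridization controls as a covariate the count was 0 for CsA 25 against FK506 6 mg/kg after 28 doses and FK506 6 against FK506 0.6 mg/kg after 28 doses, 1 for FK506 0.6 mg/kg after 28 doses and Rapa 1 mg/kg after 28 doses, 2 for the FK506 6 mg/kg difference between 28 and 7 doses, 6 for FK506 6 mg/kg after 28 doses, and 9 for FK506 6 against Rapa 10 mg/kg after 28 doses. Each of these settings moved the named count by more than 1.5 times or between 0 and 1, and the cause was not tested. Over all genes followed, comparisons and alternatives, 489 values lost their call, 111 gained one and 16974 kept their side of the threshold. An offset of 1 and leaving out the 4 arrays with liver RNA moved no count by that much. No paired analysis was possible because replicate numbers were given in the order of deposition and pair no rats.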
